A study of Mus musculus with 4 samples.

Results

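The genes described here encode the proteins of the cytosolic ribosome, measured in the liver of mouse fetuses. They were taken from the probe sets to which the platform annotation gives exactly 1 gene symbol, by the form of the symbol (Rpl or Rps, a number and at most a closing a, x or l, or Rplp0, Rplp1, Rplp2 or Rpsa). The rule found 46 genes on 100 probe sets, among 18193 genes with such a probe set, and each gene was read from its brightest probe set by mean signal. Of the 46, 43 were among the brighter 50% of probe sets and entered the test. The livers came from Sox17+/- fetuses (2 arrays) and wildtype fetuses (2 arrays), all C57BL/6 and on day 17 of gestation, from C57BL/6 females mated with Sox17+/- males. Sox17 encodes a SOX family transcription factor of endoderm, bile ducts and arterial endothelium. The liver was separated from the biliary system before extraction. What was altered in the Sox17 allele, and whether an array held 1 fetus or a pool, is not stated in these sources. Each array gives MAS5 signals, a linear measure of brightness per probe set, scaled to a common trimmed mean. The signal of a probe set depends on its own probes, so signals of different genes are not set against each other as RNA amounts.

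A cytosolic ribosome joins a small subunit, which reads the mRNA, to a large subunit, which forms peptide bonds. Its proteins are needed in near equal numbers, and their mRNAs are among the most abundant of any growing cell. Most of these mRNAs begin with a run of pyrimidines, the 5′ terminal oligopyrimidine (TOP) tract. Through it the kinase complex mTORC1 and the RNA-binding protein LARP1 control their translation. The mammalian genome also holds many processed copies of these genes, so that probes can be shared between a gene and its pseudogenes. In fetal liver both hepatocytes and the blood-forming cells housed there use them heavily.

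Some letters were more frequent at the starts of these genes than at all starts. RefSeq promoter windows (GRCm38.p6, 250 bases before to 50 after an annotated start) matched 40 of the 46 genes, with 48 windows. An unbroken run of at least 8 pyrimidines within 10 bases of the start was present in 19 of these 48 windows, or 39.6%, against 13.7% of all 32841 windows. The letters CCGGAAG, the core bound by Ets family factors such as GABP, occurred on either strand in 20 windows, or 41.7%, against 8.86% of all windows. The letters AAGATGG, part of the YY1 site, occurred on either strand in 7 windows, or 14.6%, against 6.34%. A match describes the letters in the window and not a bound site. The windows below run from 40 bases before the start to 20 from it, 5′ to 3′ on the gene's strand, with the longest pyrimidine run near the start in capitals. The first 5 are chosen examples of a pyrimidine run at the annotated start, from genes whose mean signal was over 20000. The last belongs to Rpl3l, the relative used in skeletal and heart muscle, which lay below the filter here.
Rplp2 (chr7:141447611-141447670, plus strand): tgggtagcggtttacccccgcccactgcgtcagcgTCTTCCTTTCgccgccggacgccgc
Rpl35 (chr2:39005112-39005171, minus strand): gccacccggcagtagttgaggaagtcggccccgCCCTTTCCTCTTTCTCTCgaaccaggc
Rpl38 (chr11:114668540-114668599, plus strand): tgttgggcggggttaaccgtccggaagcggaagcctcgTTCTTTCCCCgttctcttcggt
Rps10 (chr17:27635225-27635284, minus strand): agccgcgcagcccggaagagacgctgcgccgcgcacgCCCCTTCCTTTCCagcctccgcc
Rps18 (chr17:33955646-33955705, minus strand): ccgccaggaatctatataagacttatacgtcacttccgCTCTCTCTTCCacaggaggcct
Rpl3l (chr17:24727786-24727845, plus strand): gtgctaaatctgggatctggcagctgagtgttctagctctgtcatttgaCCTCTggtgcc
The run was 10 bases long in Rplp2 and in Rpl38, 18 in Rpl35, 13 in Rps10, 11 in Rps18 and 5 in Rpl3l. In the first 5 it spans the annotated start, and in Rpl3l it lies downstream of it. Some other members over 20000 in mean signal had runs no longer than that of Rpl3l. Examples were 5 bases in Rplp0 and in Rpsa, 3 in Rpl41 and 2 in Rps3. The runs were read from genomic sequence at annotated starts, and where each mRNA begins was not measured. A short run here therefore does not show that an mRNA lacks a TOP tract, and part of a run may lie before the mRNA.

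The arrays differed more by their number than by genotype at the bright end. The highest signal was 56860 on Sox17+/- array 1 and 56988 on wildtype array 1, but 32468 on Sox17+/- array 2 and 34407 on wildtype array 2. The 99th percentile of signals was also higher on the arrays numbered 1, at 15914 and 15372, than on those numbered 2, at 12905 and 12739. Same-numbered arrays share a code in the names of their raw files in the labels, whose meaning is not given. Sox17 itself gave 139 and 124 in Sox17+/- livers against 244 and 264 in wildtype livers, a log2 difference of -0.87 (SE 0.20, unadjusted p = 0.0073, adjusted p = 0.9999 by limma). Whether its probe set lies in the altered part of the gene is not given. Hepatocyte markers were bright on every array, with 8 of 10 listed genes tested and a summed signal of 310571 and 180133 in Sox17+/- livers against 314182 and 188968 in wildtype livers. The 7 tested of 12 erythroid markers summed to 107099 and 93148 in Sox17+/- livers against 105670 and 96319 in wildtype livers.

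The first question was whether ribosomal protein transcripts differed between Sox17+/- and wildtype livers. The median log2 difference over the 43 tested genes was 0.08, a ratio of 1.06, with quartiles of 0.04 and 0.12. It was 0.13 with each array centred on its median and 0.048 with cyclic loess normalization. Over all 11676 tested genes the median was -0.02, with quartiles of -0.20 and 0.14. None of the 43 passed limma's test at an adjusted p under 0.05 (0% of all 22519 probe sets were called in either direction), and at an unadjusted p under 0.05 there were also 0 of 43, against 1.6% of all genes higher and 2.55% lower. The standard errors of the 43 differences ran from 0.19 to 0.81 with a median of 0.31. The median limits of their 95% intervals were -0.72 and 0.87, ratios of 0.607 and 1.83, in this fit without the array number. With the number as a block the ratios were 0.755 and 1.49. In bulk liver, fewer cells of a type and less RNA per cell cannot be told apart.

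**Figure D1:**
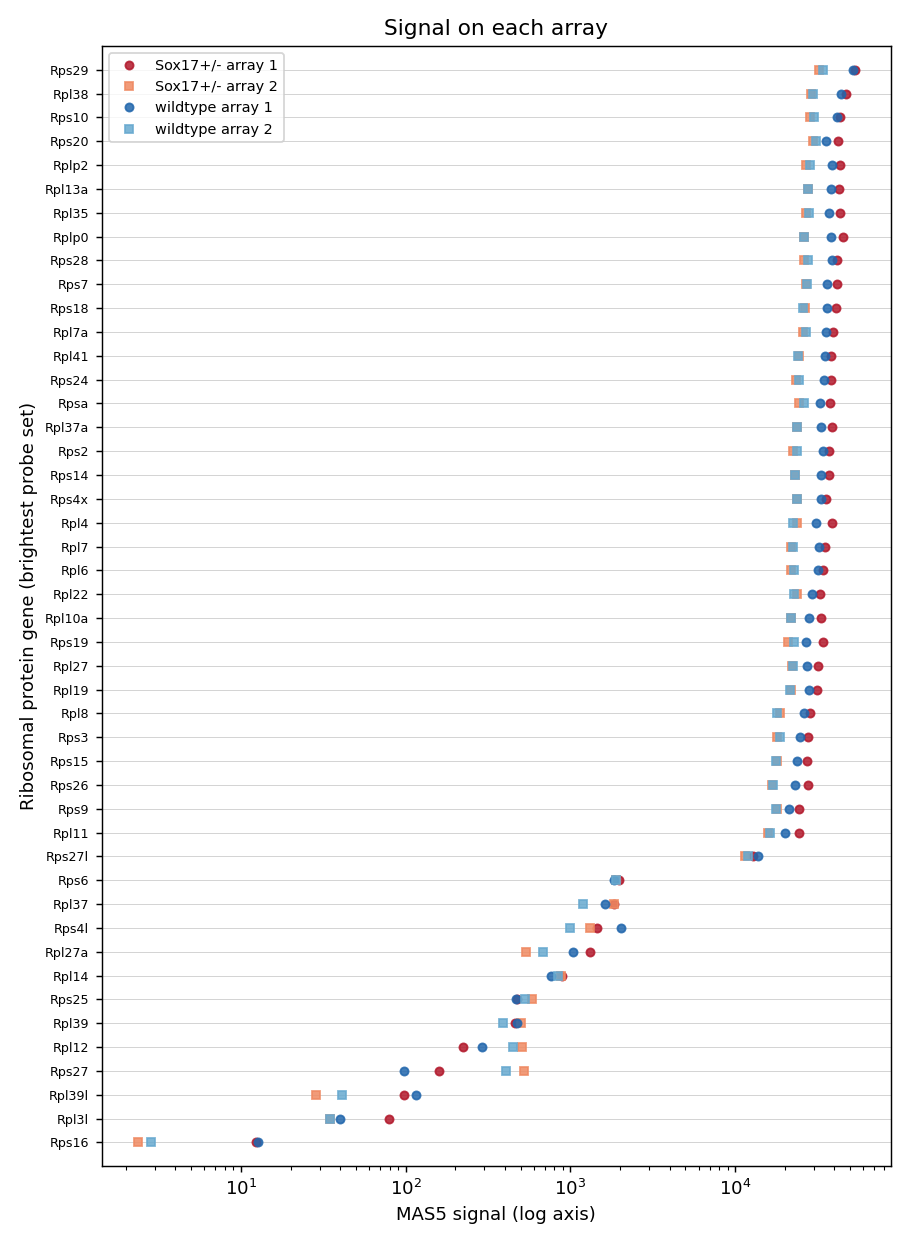
Each row is a ribosomal protein gene, ordered by mean signal, and each point the MAS5 signal of its brightest probe set on 1 array (log axis). Red points are Sox17+/- arrays and blue points wildtype arrays, with circles for arrays numbered 1 and squares for arrays numbered 2. In the upper 34 genes, all over 10000 in mean signal, both circles lie right of both squares whatever the colour.

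The median of Sox17+/- minus wildtype was 0.17 in the pair of arrays numbered 1 and -0.01 in the pair numbered 2, on the log2 scale. These medians depended on the scaling, with 0.061 in pair 1 and 0.19 in pair 2 after centring each array on its median, and 0.056 and 0.030 after quantile normalization. Higher values in Sox17+/- livers in pair 1 and again in pair 2 were seen for 14 of the 43 genes (25.5% of all tested genes). Lower values in each pair were seen for 1 gene (32.3% of all), and 28 had opposite signs. With median centring these counts were 30 higher and 0 lower, and with quantile normalization 20 higher and 4 lower. Over all 11676 tested genes they were 3077 higher and 2080 lower with median centring, and 3074 higher and 3739 lower with quantile normalization. Both Sox17+/- arrays lay above both wildtype arrays for 2 genes, Rpl37 and Rpl14 (14.5% of all), and both lay below for 0 (18.7% of all). For the other 41 genes the genotypes overlapped. As a single value, the median log2 signal of the 43 genes was 15.1 and 14.4 in Sox17+/- livers against 14.9 and 14.5 in wildtype livers (exact permutation test, two-sided p = 1, where 2 arrays against 2 cannot give less than 0.333).

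**Figure D2:**
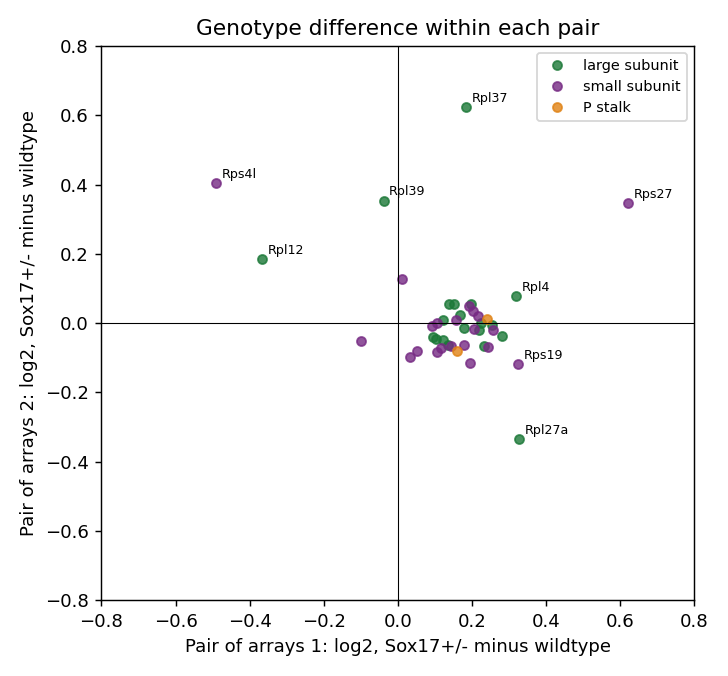
Each point is 1 of the 43 tested genes, placed by its log2 difference (Sox17+/- minus wildtype) in the pair of arrays numbered 1 (horizontal) and in the pair numbered 2 (vertical), coloured by subunit. Most points lie right of zero and close to the horizontal zero line, and the 8 named genes are those over 0.3 from zero in either pair.

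The P stalk, a flexible arm of the large subunit that recruits translation factors, is built on Rplp0 with copies of Rplp2 bound to it (Rplp1 was not analysed here). Rplp0 had signals of 44994 and 26393 in Sox17+/- livers against 38051 and 26164 in wildtype livers. Rplp2 had 43597 and 26882 in Sox17+/- livers against 38998 and 28405 in wildtype livers. For both genes the array numbered 1 of each genotype was the brighter, and the genotypes overlapped. The log2 differences were 0.13 for Rplp0 and 0.04 for Rplp2 (SE 0.35 and 0.33, adjusted p = 0.9999 for each by limma). Rpsa, a small subunit protein also known as a laminin receptor, had 37447 and 24347 in Sox17+/- livers against 32686 and 26349 in wildtype livers, with a difference of 0.04.

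Among the 20 tested large subunit genes outside the stalk, the median log2 genotype difference was 0.10. In each pair 7 were higher (25.5% of all tested genes) and 0 lower (32.3% of all), and 13 had opposite signs. Rpl37 lay highest, with signals of 1836 and 1837 in Sox17+/- livers against 1615 and 1187 in wildtype livers, a log2 difference of 0.40 (SE 0.24, adjusted p = 0.9999 by limma). Wildtype array 2 was the low one, and the pair differences were 0.18 and 0.62. Rpl14 had 884 and 873 in Sox17+/- livers against 768 and 840 in wildtype livers, a difference of 0.13. Rpl4, whose protein lines the tunnel through which the new peptide leaves, had 38797 and 23837 in Sox17+/- livers against 31070 and 22592 in wildtype livers. Its difference of 0.20 was the highest among members over 20000 in mean signal, with pair differences of 0.32 and 0.08. Rpl39, another protein of the exit tunnel, had 463 and 503 in Sox17+/- livers against 475 and 390 in wildtype livers. At the low end Rpl12, part of the base on which the stalk sits, had 222 and 510 in Sox17+/- livers against 291 and 446 in wildtype livers, a difference of -0.09 with pair differences of -0.37 and 0.19. Rpl27a, with 1310 and 541 in Sox17+/- livers against 1040 and 686 in wildtype livers, had opposite pair differences of 0.33 and -0.34 and a mean difference of -0.00. Rpl38 and Rpl6 differed by 0.03 each.

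The 21 tested small subunit genes had a median log2 genotype difference of 0.06. In each pair 6 were higher (25.5% of all tested genes) and 1 lower (32.3% of all), and 14 had opposite signs. Rps27 lay highest at 0.48, with signals of 160 and 523 in Sox17+/- livers against 98.1 and 408 in wildtype livers. Its standard error of 0.81 was the widest of the 43 genes, and the arrays numbered 2 were above those numbered 1 in both genotypes. Rps9, Rps26 and Rps18 followed with 0.12 each, and Rps15 had the same rounded value. Rps26, which lies where the mRNA leaves the subunit, had 27825 and 16862 in Sox17+/- livers against 23272 and 17096 in wildtype livers. Rps18 had 41187 and 26724 in Sox17+/- livers against 36031 and 25820 in wildtype livers. Rps29, whose probe set was the brightest of all members, had 53209 and 32165 in Sox17+/- livers against 51968 and 34407 in wildtype livers, a log2 difference of -0.03. Rps10 had 43172 and 28538 in Sox17+/- livers against 41683 and 30154 in wildtype livers, a difference of -0.01. Rps20 had 42329 and 29698 in Sox17+/- livers against 35735 and 31145 in wildtype livers, a difference of 0.09. Rps25, a dim probe set, had 473 and 582 in Sox17+/- livers against 469 and 532 in wildtype livers, a difference of 0.07. In the bright genes of both subunits the gap between array numbers was wider than the gap between genotypes. Rps6, the substrate of the S6 kinases and singled out after its values were seen, was dimmer, with a mean signal of 1897 on its main probe set. It showed no such gap, with 1982 and 1882 in Sox17+/- livers against 1840 and 1882 in wildtype livers. The 9 tested members under 10000 in mean signal had a median number difference of 0.02.

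Some members are relatives of a standard ribosomal protein. On its brightest probe set Rps27l, a p53-inducible relative of Rps27, was the only one of the 43 lower in each pair. With median centring 0 of the 43 were lower in each pair, and with quantile or cyclic loess normalization 4 were. Of all 11676 tested genes 2080 were lower in each pair with median centring, 3739 with quantile and 3678 with cyclic loess normalization. Rps27l had 12938 and 11521 in Sox17+/- livers against 13864 and 11951 in wildtype livers. Its log2 difference was -0.08 (SE 0.21, adjusted p = 0.9999 by limma). Its other probe sets were lower in pair 1 but higher in pair 2, by 0.04 and 0.09. Rps4x, the X-linked form of a small subunit protein, had 35673 and 23635 in Sox17+/- livers against 33435 and 23781 in wildtype livers, a difference of 0.04. Rps4l had 1449 and 1321 in Sox17+/- livers against 2043 and 995 in wildtype livers, a difference of -0.04 with pair differences of -0.49 and 0.40. The 3 members below the filter got no test. They were Rpl39l, a relative known from testis, with 97.7 and 28.4 in Sox17+/- livers against 115 and 41.1 in wildtype livers, and Rpl3l, with 79.6 and 34.8 in Sox17+/- livers against 40.1 and 34.8 in wildtype livers. The third was the only probe set of Rps16 with 1 symbol, at 12.3 and 2.36 in Sox17+/- livers against 12.7 and 2.84 in wildtype livers.

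Loss of 1 copy of certain ribosomal protein genes causes Diamond-Blackfan anaemia in humans, a failure of red cell production. Of 22 such genes listed, 13 were tested here. In Sox17+/- livers 2 of them were higher (25.5% of all tested genes) and 0 lower (32.3% of all) in each pair. The other 11 had opposite signs, and the median log2 difference was 0.09. Rps27 (0.48) and Rpl11 (0.12) lay highest, Rps29 (-0.03) and Rps10 (-0.01) lowest. Rpl11, which also binds the p53 regulator MDM2, had 24420 and 15839 in Sox17+/- livers against 20081 and 16266 in wildtype livers.

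The second question was how the genotype difference compared with the difference between arrays numbered 1 and arrays numbered 2, which each hold both genotypes. Over the 43 genes the median log2 difference of number 1 over number 2 was 0.53, a ratio of 1.45, with quartiles of 0.41 and 0.58. Over all tested genes it was -0.00, with quartiles of -0.21 and 0.21. For the 43 genes it was 0.62 within Sox17+/- livers and 0.44 within wildtype livers, with no residual degrees of freedom to test that gap. Both arrays numbered 1 lay above both numbered 2 in 36 of 43 genes (22% of all tested genes), and below in 3 (23% of all). The number difference exceeded the genotype difference in size in 39 of 43 genes (56.1% of all). None of the 43 passed limma's test of the number after adjustment (0% of all probe sets), and 27 had an unadjusted p under 0.05 (10.1% of all genes). The smallest adjusted p of a member was 0.240, for Rps27, in which the arrays numbered 2 were the brighter. With limma's trended and robust prior 34 of 43 were called for the number (5.92% of all probe sets, 3.45% with array 1 higher) and 0 for the genotype (0.0133% higher). With each array centred on its median 1 of 43 was called for the number (3.59% of all, 1.31% with array 1 higher) and 0 for the genotype (0.0133% higher).

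The number difference went with brightness, in bands of mean signal chosen after seeing the data. The 32 members with a mean signal over 20000 had a median number difference of 0.55 on the log2 scale, from 0.35 to 0.66, and the 76 other tested genes of that brightness had 0.52. From 10000 to 20000 the 2 members had a median of 0.33 and the 237 other genes 0.24. From 2000 to 10000 the 2012 other genes had 0.04, and no member fell there. From 500 to 2000 the 6 members had 0.12 and the 4264 other genes -0.04. The 3 tested members under 500, Rpl39, Rpl12 and Rps27, had 0.08, -0.87 and -1.76, against a median of -0.02 in the 5044 other genes. After quantile normalization, which gives all arrays the same distribution, the median over the 43 genes was -0.04 for the number and 0.05 for the genotype. What sets the arrays apart at the bright end was not tested.

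**Figure D3:**
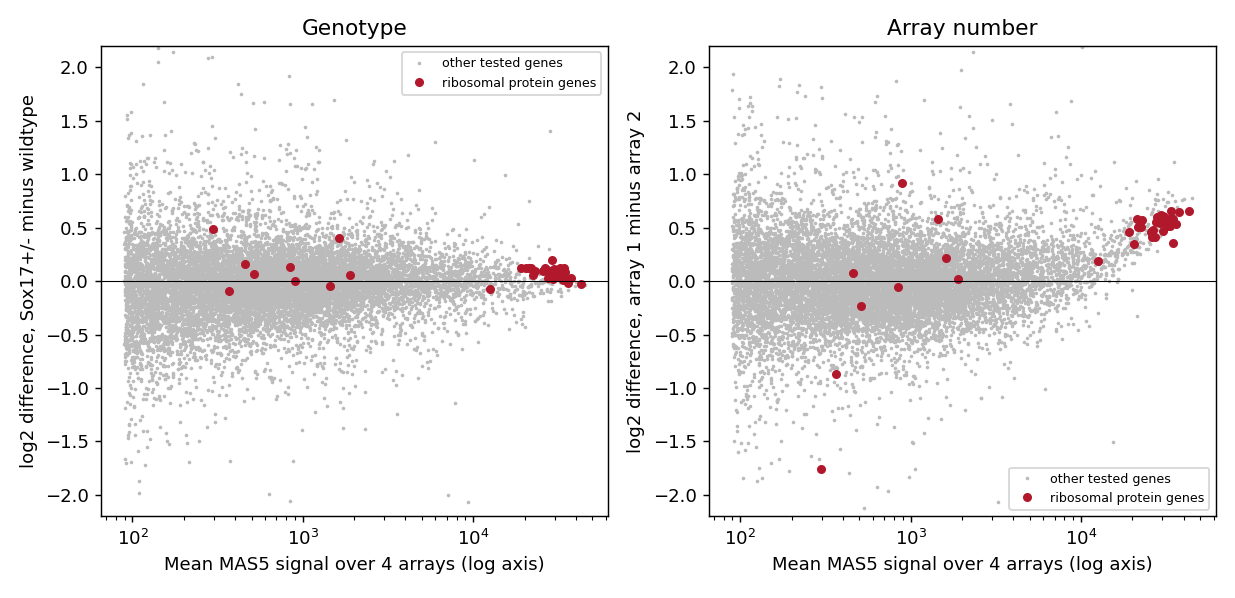
Log2 difference against mean MAS5 signal (log axis) for Sox17+/- minus wildtype (left) and array 1 minus array 2 (right), with the ribosomal protein genes in red and the other tested genes in grey. On the left the bright members lie near zero. On the right the whole cloud bends upward above 10000 and the members follow it. The axes stop at 2.2 in both directions, which leaves out 14 other genes on the left and 10 on the right.

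The bright members lay close together. In the 32 genes over 20000 the genotype difference ran from -0.03 to 0.20 on the log2 scale. This range was not compared with that of other genes of the same brightness. In pair 1 the differences ran from 0.03 (Rps29) to 0.33 (Rps19, singled out for this value), and all 32 were above 0 on this scale. With median centring or quantile normalization 26 were above 0, and with cyclic loess normalization 29. Of all 11676 tested genes 5336 were above 0 in pair 1 on this scale. That count was 3887 with median centring, 5398 with quantile and 5568 with cyclic loess normalization. In pair 2 the differences of the 32 ran from -0.12 to 0.08. Their medians were 0.17 in pair 1 and -0.02 in pair 2, against 0.02 and -0.06 in the 76 other tested genes over 20000.

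Probe sets of the same gene did not always agree. Of the 100 probe sets, 87 were tested, with a median log2 genotype difference of 0.07. For Rps14, Rps28, Rps7 and Rpl7, singled out for this, all probe sets of a gene lay within 0.1 of each other. Rps10 has 6 probe sets, and on 1 of them Sox17+/- array 2 gave 3730 against 30343 on Sox17+/- array 1 and 25778 and 21508 in wildtype livers, while its other probe sets showed no such drop. A dimmer probe set of Rpl37a gave 286 and 346 in Sox17+/- livers against 915 and 759 in wildtype livers, a log2 difference of -1.36, whereas its brightest gave 0.11. Both probe sets were singled out after their values were seen, and neither passed limma's test (adjusted p = 0.9999 for each). The unadjusted p by limma was 0.29 for the Rps10 probe set and 0.0017 for the Rpl37a probe set. Of all 22519 tested probe sets 916 had an unadjusted p under 0.05. The 20 tested probe sets whose identifier carries no letter (s, x or a) had a median genotype difference of 0.05 and a median number difference of 0.01. The 67 that carry one had 0.08 and 0.53. Without a letter, Rplp0, Rpsa, Rpl27, Rpl19, Rps15 and Rpl22 had mean signals from 14153 to 33900 and number differences from 0.21 to 0.79. The other probe sets without a letter had mean signals of 1897 at most, with number differences from -1.76 to 0.92. The letter was not tested apart from brightness. A further 104 tested probe sets name a ribosomal protein gene together with at least 1 other symbol. They had a median genotype difference of 0.05 and a median number difference of 0.51.

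Of 12 listed ribosomal proteins and relatives whose symbols fall outside the rule, 4 were tested. Fau, whose product is processed to a small subunit protein, had 27819 and 18030 in Sox17+/- livers against 23095 and 18772 in wildtype livers, a log2 genotype difference of 0.11. Rps3a1 differed by 0.07, Rpl7l1 by 0.06 and Rpl22l1 by 0.29. Rpl22l1, a relative of Rpl22, had 24436 and 15491 in Sox17+/- livers against 16680 and 15088 in wildtype livers, with pair differences of 0.55 and 0.04, and its difference lay above the upper quartile of the members.

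The machinery around the ribosome was read from lists, and 0 of their genes passed the adjusted test. Among 19 tested translation factors and partners with TOP mRNAs, 10 were higher in Sox17+/- livers in each pair (25.5% of all genes) and 1 lower (32.3% of all), with a median log2 difference of 0.11. Eef2, the translocation factor and chosen for its small p-value, had 16973 and 15783 in Sox17+/- livers against 12230 and 13196 in wildtype livers. Its difference was 0.37 (SE 0.20), without overlap. Of the 19 genes 4 lay above without overlap (14.5% of all genes) and 0 below (18.7% of all). Nap1l1, a histone chaperone, differed by 0.22. Of 44 ribosome assembly genes 19 were higher in each pair and 8 lower (median 0.07), with Rrp9, which binds the U3 small nucleolar RNA, at -0.58 (SE 0.38) and Utp15, a factor of small subunit processing, at -0.34 (SE 0.23). Rrp9 gave -0.083 without Sox17+/- array 1 and -1.07 without Sox17+/- array 2, and Utp15 gave -0.15 without wildtype array 2 and -0.53 without wildtype array 1. Of 22 genes of RNA polymerase I and III 6 were higher and 8 lower (median -0.04, but 0.0086 with median centring), with the polymerase I factor Taf1c at -0.54 (SE 0.31) and the subunit Polr1e at 0.25 (SE 0.21). Taf1c gave -0.17 without Sox17+/- array 1 and -0.92 without Sox17+/- array 2, and Polr1e gave 0.15 without Sox17+/- array 1.

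The lists of regulators had medians above that of all genes. Of 17 genes of mTORC1 and LARP1 control 7 were higher in Sox17+/- livers in each pair (25.5% of all tested genes). In this list 0 were lower (32.3% of all), and the median log2 difference was 0.09. Ddit4, an inhibitor of mTORC1 induced by stress and hypoxia, had 1881 and 1091 in Sox17+/- livers against 724 and 604 in wildtype livers, a difference of 1.10 (SE 0.32, unadjusted p = 0.019, adjusted p = 0.9999 by limma), and 0.71 without Sox17+/- array 1. Eif4ebp1, the translational repressor that mTORC1 inactivates, had 5638 and 4134 in Sox17+/- livers against 3214 and 3287 in wildtype livers, a difference of 0.57, and 0.35 without Sox17+/- array 1. Of 6 tested genes of p53 and its targets 4 were higher (25.5% of all) and 0 lower (32.3% of all) in each pair (median 0.27). The cell cycle inhibitor Cdkn1a was at 0.98 (SE 0.51). Cdkn1a had 909 and 417 in Sox17+/- livers against 439 and 210 in wildtype livers, so the genotypes overlapped, and it gave 0.43 without Sox17+/- array 1, 0.48 without wildtype array 2, 1.49 without wildtype array 1 and 1.53 without Sox17+/- array 2. The cell death gene Bbc3 was at 0.83 (SE 0.52), with pair differences of 1.62 and 0.05, and gave 0.062 without wildtype array 1 and 1.60 without wildtype array 2. Of 11 transcription regulators of ribosomal protein genes 6 were higher (25.5% of all) and 0 lower (32.3% of all) in each pair, with a median of 0.22. Myc, which drives ribosome production, had 2081 and 2163 in Sox17+/- livers against 1565 and 1558 in wildtype livers, a difference of 0.44 (SE 0.19, adjusted p = 0.9999 by limma). Tbpl1 differed by 0.44 as well, with pair differences of 0.78 and 0.10, and 0.21 without wildtype array 1 and 0.67 without wildtype array 2.

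The proteins of the mitochondrial ribosome had a median below 0. They are encoded by separate nuclear genes (Mrpl and Mrps), and 75 were tested. In Sox17+/- livers 46 of them had lower values in each pair (32.3% of all tested genes), 9 had higher values (25.5% of all) and 20 had opposite signs. With median centring 25 had lower and 7 higher values in each pair, and the median was -0.074. On that scale 2080 of all 11676 tested genes were lower and 3077 higher in each pair, with a median of 0.024. Without centring the median log2 difference of the 75 genes was -0.12, a ratio of 0.920, and it was -0.12 in pair 1 and -0.11 in pair 2. Mrps24 had 1834 and 1772 in Sox17+/- livers against 2501 and 2345 in wildtype livers, a difference of -0.42 (SE 0.20). Mrps2 had 1309 and 1345 in Sox17+/- livers against 1979 and 1635 in wildtype livers, a difference of -0.43 (SE 0.21). In both genes, chosen for the smallest p-values of the list, the Sox17+/- arrays lay below both wildtype arrays. That held for 32 of the 75 (18.7% of all tested genes), while 5 lay above without overlap (14.5% of all). By limma 0 of the 75 had an unadjusted p under 0.05 (1.6% of all higher and 2.55% lower). The median number difference was 0.07, against 0.53 in the cytosolic set.

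**Figure D4:**
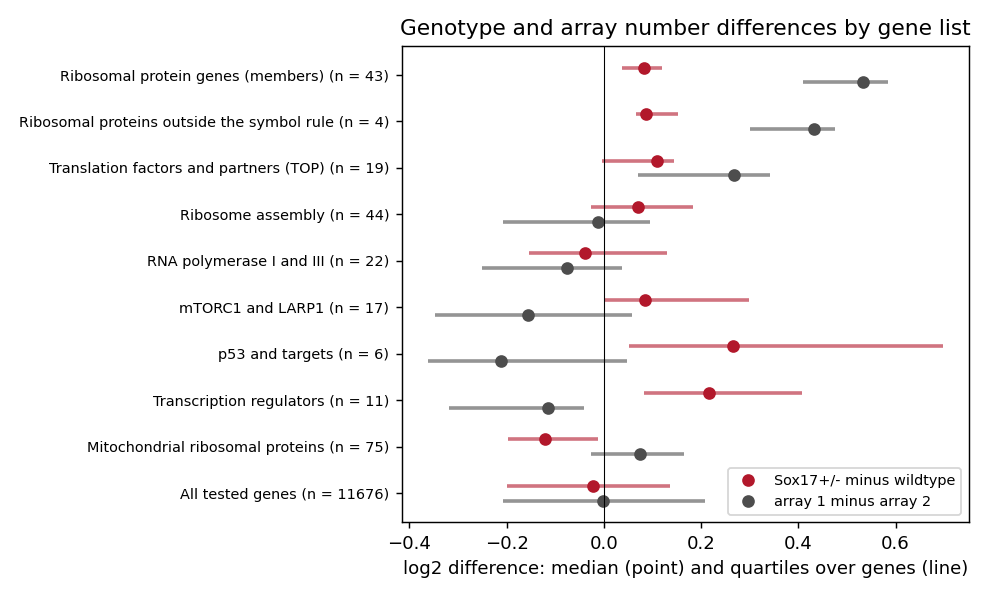
Median (point) and quartiles (line) of the log2 differences over the tested genes of each list, for Sox17+/- minus wildtype in red and array 1 minus array 2 in grey. The cytosolic ribosomal protein genes lie near zero in red and at 0.53 in grey, while the mitochondrial set lies at -0.12 in red.

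Markers of the cells of fetal liver were read beside these values. The hepatocyte list had a median log2 genotype difference of -0.04 (0.0033 with median centring) and a number difference of 0.77, and the neutrophil list had 0.04 and 0.58. The erythroid list had -0.07 and 0.07, and the proliferation list 0.03 and 0.15. The megakaryocyte list had a genotype difference of -0.25, with pair medians of -0.25 in each pair, and the progenitor list -0.23, with -0.15 and -0.38. The lymphoid list had -0.34 with pair medians of -0.77 and 0.10, and summed to 2137 and 2197 in Sox17+/- livers against 3757 and 2112 in wildtype livers, so that wildtype array 1 alone was high. The endothelial list had 0.12 with pair medians of -0.0069 and 0.27, and the stellate list 0.13 with 0.052 and 0.22. The 7 tested macrophage genes had a median of -0.07 but ran from -1.68 to 1.03. Only 2 of 5 biliary genes were tested, with a median of 0.12 and pair medians of 0.39 and -0.15. The part of these markers in the ribosomal protein values was not tested.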

How the data were processed

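Liver RNA was hybridised to 4 single-colour Affymetrix arrays, 2 per genotype. The authors deposited 1 MAS5 signal per probe set and array, a linear intensity; the tool is named in the submitters' processing notes. The mean after trimming 2% of probe sets at each end was 500 on every array, as seen in the values. Of 45101 probe sets 64 controls were left out, and of the other 45037, 34945 had 1 gene symbol, 932 several and 9160 none listed. Signals were taken as log2(signal + 16), so folds of dim genes are understated. The brighter 50% by mean signal (22519) entered a linear model per probe set (limma 3.58.1, R 4.3.3; moderated two-sided test, Benjamini-Hochberg over all probe sets, threshold 0.05), with genotype as the only term, or with number and genotype for the number difference. Residual degrees of freedom were 2 and 1, to which the prior added 3.06 and 3.21. Lists used each gene's brightest tested probe set. Named genes were the stalk proteins and Rpsa; the 4 highest and 4 lowest members by genotype difference in each subunit, by brightness and by number difference; relatives with a closing l or x and their namesakes; members below the filter; the outermost 2 each way of the anaemia list; ribosomal proteins outside the rule; Sox17; and the 2 smallest p-values of each other list. The members and lists were chosen with earlier results of these data known. The code was tested on simulated data. The number of arrays limits the precision. Sequences are from RefSeq. Alternatives are given in the closing section.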

Additional observations from a re-analysis of the deposited data

How the results depend on the processing

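With 1 array left out, in a fit that assumes the lone array to vary like the other genotype, the genotype difference turned sign in most named members, but not in Rpl14 (0.065 to 0.19), Rpl37 (0.18 to 0.62) or Rpl39 (0.020 to 0.30). The median log2 genotype difference of the 43 members lay between -0.24 and 0.38 with 1 array left out (lowest without Sox17+/- replicate 1, highest without Sox17+/- replicate 2), and the median number difference between 0.44 and 0.62. With the array number as a replicate block the median genotype difference was 0.08 and the median limits of the 95% intervals narrowed to -0.41 and 0.57. In that fit 0 probe sets passed and 1673 had an unadjusted p under 0.05, against 916 without the block. Deviations from the genotype mean correlated between arrays of the same number (r = 0.38 over 22519 probe sets, which are not independent).

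Over all probe sets the count called for genotype was 0, and 3 with median centring or with a trended and robust prior. The count called for the number was 0, and 37 among the brightest 25%, 808 with median centring (where the prior's degrees of freedom came out infinite) and 1332 with a trended and robust prior. The members' median genotype difference was 0.13 with median centring, 0.053 with quantile and 0.048 with cyclic loess normalization. Their median number difference was 0.61 with median centring, -0.036 with quantile normalization, 0.18 with cyclic loess normalization (an alternative chosen after seeing the data) and 0.015 on probe sets whose identifier carries no letter. Members higher in both pairs numbered 14, and 30 with median centring and 6 on probe sets with no letter, where 20 members remained. Members lower in both pairs numbered 1, and 3 without a filter or with the mean over a gene's probe sets, 0 with median centring, 4 with quantile or cyclic loess normalization and 5 on probe sets with no letter. Over all 11676 tested genes the counts moved too. They were 2972 higher and 3769 lower, and 3077 and 2080 with median centring, 3074 and 3739 with quantile and 3188 and 3678 with cyclic loess normalization. The cause of these shifts was not tested. Median centring moved the all-probe-set median of the number difference to 0.03, against -0.05.

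Of 425 values of named genes under alternatives other than leaving out an array, 17 had the sign turned. For Rpl27a these were 0.0020 with pseudocount 64, 0.043 with median centring, 0.00020 with quantile and 0.0042 with cyclic loess normalization. Rpl38 gave -0.013 with cyclic loess, Rpl6 -0.0075 with quantile and -0.0089 with cyclic loess, and Rps4x -0.0032 with quantile normalization. With median centring Rps10 gave 0.032, Rps29 0.015 and Rps4l 0.0033. With the mean over probe sets Rps29 gave 0.016, Rps9 -0.15, Utp15 0.018 and Rpl7l1 -0.21. On probe sets with no letter Rps20 gave -0.12 and Rps9 -0.84. None of these values passed the test.

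With 1 array left out the sign turned in 23 named genes, whose ranges were Rpl11 -0.19 to 0.43, Rpl12 -0.66 to 0.48, Rpl27a -0.63 to 0.62, Rpl38 -0.33 to 0.39, Rpl4 -0.15 to 0.55, Rpl6 -0.29 to 0.34, Rplp0 -0.26 to 0.51 and Rplp2 -0.31 to 0.39. They were Rps10 -0.31 to 0.28, Rps18 -0.19 to 0.43, Rps20 -0.17 to 0.34, Rps25 -0.076 to 0.22, Rps26 -0.24 to 0.48, Rps27 -0.46 to 1.43, Rps27l -0.18 to 0.031, Rps29 -0.39 to 0.33, Rps4l -0.56 to 0.47, Rps4x -0.25 to 0.34, Rps9 -0.10 to 0.34 and Rpsa -0.27 to 0.35. Outside the rule they were Fau -0.21 to 0.42, Rpl22l1 -0.034 to 0.62 and Rps3a1 -0.22 to 0.35. The number difference has no residual degrees of freedom with 3 arrays and was then given without a test.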
